A study of Homo sapiens with 6 samples.

Results

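The unfolded protein response and the integrated stress response were examined through 35 genes, taken as a named list and matched to the deposited gene identifiers by symbol. The list was chosen with earlier results of these data known. All 35 were found among 62700 genes, and all 35 passed the filter on low values, which kept 14292 genes. The list holds 18 genes of the integrated stress response and 17 of the unfolded protein response. Polyadenylated RNA was sequenced from TCam-2, an established cell line of a human seminoma (a testicular germ cell cancer), with a stranded library kit. The 3 groups had 2 libraries each. WT cells were not transduced. GFP cells were transduced with FLAG-tagged GFP, and RBMXL3 cells with FLAG-tagged RBMXL3, a relative of the RNA-binding protein RBMX. Both other groups served as controls for RBMXL3, and GFP shares transduction and the tag with it. All groups were 1 cell line grown in 1 medium. The labels give neither the vector and promoter nor whether replicates were separate cultures, so the p-values may measure technical spread only.

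The integrated stress response begins when a kinase phosphorylates the translation factor eIF2. Most protein synthesis then slows, while the ATF4 messenger RNA is translated more, and ATF4 protein switches on genes for amino acid synthesis, amino acid transport and feedback control. The unfolded protein response is the set of reactions to misfolded protein in the endoplasmic reticulum (ER). Its sensors are PERK (the product of EIF2AK3), IRE1 (ERN1) and ATF6. PERK is also an eIF2 kinase, so the responses share a branch. IRE1 cuts a short stretch out of XBP1 messenger RNA, and spliced XBP1 and cleaved ATF6 raise the chaperones and degradation factors of the ER. Several of these steps act on protein or translation, which messenger RNA levels do not measure.

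The libraries held 17685680 (RBMXL3 replicate 1) to 29318007 (WT replicate 1) recovered reads, fewest in the RBMXL3 pair. RBMXL3 itself had 84 and 68 reads in its own libraries and 0 in all 4 controls, which allows up to 2.52 to 3.18 normalised reads there by the limit of 3 counts. All 8 seminoma and primordial germ cell markers passed the filter, with summed levels of 106743 to 123055 normalised reads in WT, 104680 to 118995 in GFP and 109548 to 110069 in RBMXL3. The 6 stromal, endothelial and blood markers summed to 451 to 542 in WT, 669 to 775 in GFP and 1051 to 1076 in RBMXL3. COL3A1, a fibrillar collagen counted in these sums, had 114 and 124 in WT, 207 and 214 with GFP and 503 and 490 with RBMXL3. Its log2 changes were 1.15 and 1.86 against GFP and WT. COL1A1, another collagen, rose against WT (0.81; limma adjusted p 0.000883) and was not called against GFP (0.16; 0.413). The endothelial marker VWF was not called, at 0.09 against GFP and 0.02 against WT. The blood marker PTPRC was at 0 in 5 of the 6 libraries and had 1.06 normalised reads in GFP replicate 2. The COL3A1 rise followed the same order of groups as many stress genes, and its part in their change was not tested. Of the 8 seminoma markers 2, KIT and LIN28A, fell against both controls, beside 6.86% of all genes. In 5 of the 8 both RBMXL3 libraries lay below all controls, beside 23.6% of all genes. Against WT 3 fell, where 15.3% of all genes fell. POU5F1 rose against WT (0.46; limma adjusted p 0.0155), where 14.6% of all genes rose. The part of these marker changes in the results was not tested either. The embryonal carcinoma marker SOX2 had 31.3 and 15.1 normalised reads in WT, 15.7 and 11.7 with GFP and 32.2 and 34.2 with RBMXL3, above all controls. SOX2 rose by 0.61 against GFP (limma adjusted p 0.048) and was not called against WT (0.275), and its part was likewise not tested.

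In RBMXL3 cells 5 of 8 genes of amino acid supply and 3 of 6 feedback and effector genes rose against both controls, while 0 of 13 folding and degradation genes did. With limma at an adjusted p under 0.05, 11 members rose and 3 fell against GFP, where 10.5% of all genes rose and 10.4% fell. Against WT, 14 members rose and 2 fell, where 14.6% of all genes rose and 15.3% fell. Against both controls in the same direction, 10 members rose and 0 fell, beside 6.88% of all genes rising and 6.86% falling. At an unadjusted p 13 members rose and 2 fell against both, edgeR called 10 and 0, and DESeq2 9 and 0. Shares of all genes called are given for limma at an adjusted p only, here and below. The counts under other rules therefore have no such share beside them. All 10 members called against both controls belonged to the 18 genes of the integrated stress response. These 18 had median log2 changes of 0.33 against GFP and 0.67 against WT, while the medians over all genes tested were 0.00087 and -0.014. GFP against WT gave the same 18 a median of 0.35, with 17 of them positive, beside -0.0078 over all genes. Part of the change against WT was thus present in GFP cells too. The 17 genes of the unfolded protein response had medians of -0.09 and -0.06, and 0 of them were called against both controls by limma, edgeR or DESeq2. At an unadjusted p, 1 of the 17 was higher and 2 were lower against both controls. The difference between these groups of members is a description and has no test of its own.

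These counts rest on both RBMXL3 libraries. Without RBMXL3 replicate 1, the members called against GFP went from 14 to 1 and those called against both controls from 10 to 1. Without RBMXL3 replicate 2 they went to 2 and 2. Over all genes, calls against GFP fell likewise, from 2986 to 844 and to 679, and a lone library in a group was assumed to vary like the others. All 10 members kept their direction in each of these fits. Under quantile normalization, a rescaling that gives every library the same distribution, 13 members rose and 1 fell against GFP in place of 11 and 3. Over all genes 2841 were called against GFP under that rescaling, in place of 2986.

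**Figure D1:**
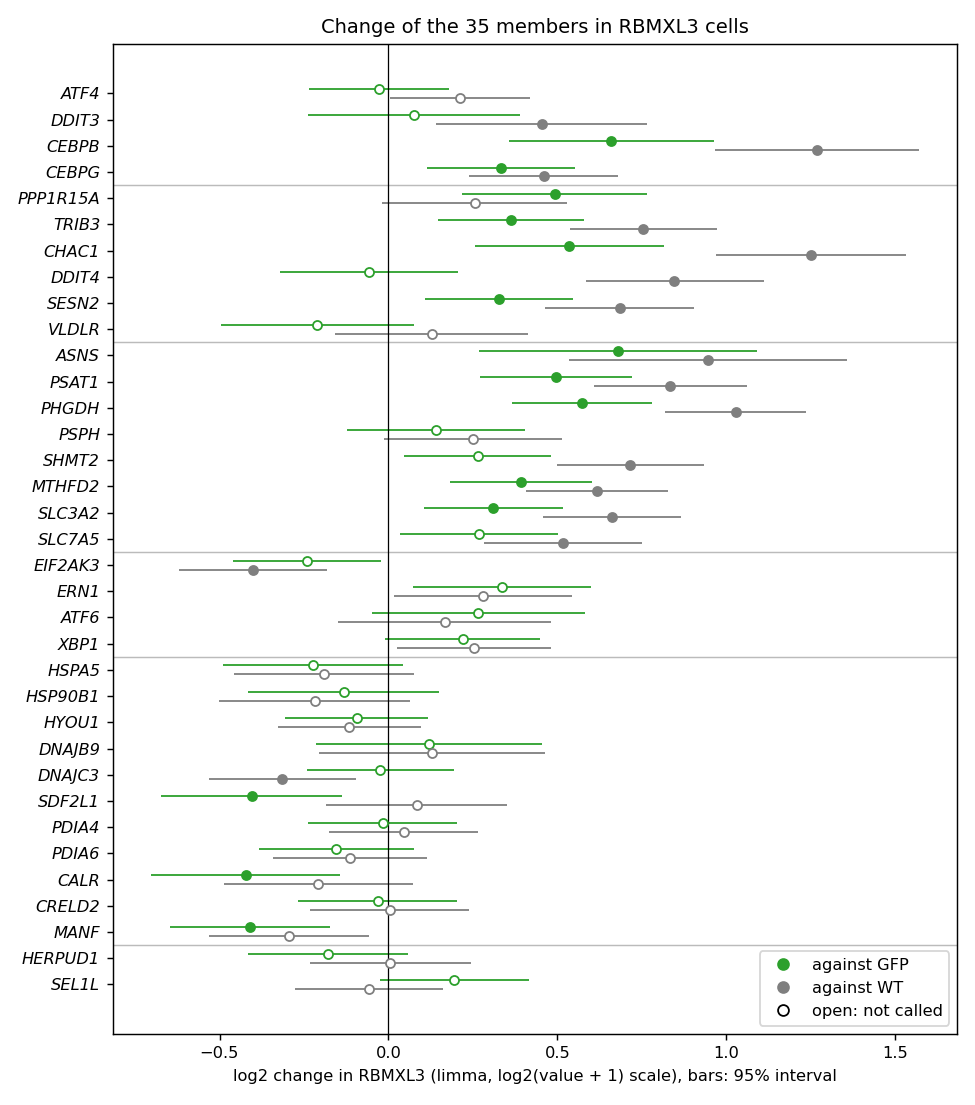
Points give the log2 change of each member in RBMXL3 cells on the log2(value + 1) scale, against GFP (green) and against WT (grey), with 95% intervals. Filled points were called at an adjusted p under 0.05, open points were not, and grey lines separate the roles. The filled points to the right lie in the upper 3 blocks, the 18 integrated stress response genes.

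The transcription factors at the head of the list differed from one another. ATF4, the factor whose translation rises when eIF2 is phosphorylated, had 8433 and 7991 normalised reads in WT, 9468 and 9927 with GFP and 9563 and 9456 with RBMXL3. RBMXL3 and GFP overlapped, and all 4 transduced libraries exceeded both WT libraries. No comparison called ATF4, whose log2 change was -0.03 against GFP (SE 0.10; limma adjusted p 0.865), 0.21 against WT (0.114) and 0.24 for GFP against WT (0.168). In these gene values the 95% interval against GFP ran from -0.24 to 0.18, from 2 libraries a group, so a larger rise lies outside it. Summed TPM of ATF4 did not match, at 3.51 and 6.75 in WT, 3.44 and 6.89 with GFP and 12.2 and 9.12 with RBMXL3. The log2 change in summed TPM was 0.97 against GFP (limma adjusted p 0.129), though TPM of ATF4 is uncertain. ATF4 was called against WT under quantile normalization.

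DDIT3 encodes CHOP, a pro-apoptotic factor induced by ATF4, and had 260 and 292 normalised reads in WT, 321 and 415 with GFP and 413 and 360 with RBMXL3. GFP and RBMXL3 overlapped, and both lay above WT. Its log2 change was 0.45 against WT (SE 0.14; limma adjusted p 0.0327) and 0.08 against GFP (0.752). The call of DDIT3 against WT was lost under quantile normalization (0.0596), with no filter (0.124), without WT replicate 1 (0.205) or 2 (0.0734) and without RBMXL3 replicate 1 (0.245) or 2 (0.0809). The sign against GFP turned without GFP replicate 1, to -0.10, and without RBMXL3 replicate 1, to -0.02. In the genome annotation 27.2% of the exon bases of DDIT3 lie opposite MARS, and whether counting used strand is not given in the sources used here.

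CEBPB encodes C/EBP-beta, a leucine zipper factor that can pair with ATF4 at target genes. It had 429 and 487 normalised reads in WT, 605 and 832 with GFP and 1137 and 1134 with RBMXL3, so the groups stepped upward without overlap. Its log2 change was 0.66 against GFP (SE 0.14; limma adjusted p 0.00673), a 1.58-fold rise, and 1.27 against WT (9.45e-05), a 2.41-fold rise. CEBPG, a partner of the other C/EBP factors without an activation domain of its own, had 1744 and 1938 in WT, 1907 and 2115 with GFP and 2602 and 2472 with RBMXL3. WT and GFP overlapped and both RBMXL3 libraries stood above them. The log2 changes of CEBPG were 0.33 against GFP (SE 0.10; limma adjusted p 0.0355) and 0.46 against WT (0.0056). Its call against GFP was lost with no filter (limma adjusted p 0.102) and with a replicate block (0.0578). That call was also lost without GFP replicate 1, where the change was 0.26, and without either WT or either RBMXL3 library. Against WT the call of CEBPG was lost without WT replicate 1 and without either RBMXL3 library.

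ATF4 and C/EBP proteins bind composite sites that join a part of each factor's motif. The letters TGATGNAAT or TTGCATCA, which can overlap each other, were searched on both strands of RefSeq promoter windows (GRCh38.p14; 250 bases before to 50 after each annotated start). Of the 35 members 33 had a window, and PSPH and SHMT2 had none. The letters were present in 3 of the 33, CEBPG, CHAC1 and HERPUD1, and in 2% of the 27305 genes with a window. Their surroundings are shown 5′ to 3′ on the strand of the gene, with the matched letters in capitals, because they set a pair of members that rose beside one that did not. The CHAC1 stretch (chr15:40953251-40953280, plus strand) lies in an annotated GENCODE 29 exon, the CEBPG stretch is chr19:33374051-33374098 (plus strand), and the HERPUD1 stretch is chr16:56931946-56931993 (plus strand). The matches begin 209, 42 and 176 bases before the RefSeq start in the same order.
CHAC1: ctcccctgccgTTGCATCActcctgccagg
CEBPG: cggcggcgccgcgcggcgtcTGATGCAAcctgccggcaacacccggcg
HERPUD1: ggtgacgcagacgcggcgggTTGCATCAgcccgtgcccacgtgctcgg
CEBPG and CHAC1 rose against both controls, and HERPUD1 was not called against either. A match of letters is not evidence that a factor binds there.

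Of the 6 feedback and effector genes, 3 rose against both controls, where 6.88% of all genes did. CHAC1, an enzyme that breaks down glutathione and a sensitive ATF4 target, had 229 and 196 normalised reads in WT, 380 and 348 with GFP and 507 and 569 with RBMXL3. Its groups stepped upward without overlap, with log2 changes of 0.54 against GFP (SE 0.13; limma adjusted p 0.0132) and 1.25 against WT (6.43e-05). TRIB3, a pseudokinase that feeds back on ATF4, had 3894 and 4188 in WT, 5649 and 4977 with GFP and 6942 and 6709 with RBMXL3. That is also an order without overlap, with log2 changes of 0.36 (SE 0.10; limma adjusted p 0.0237) against GFP and 0.75 (0.000299) against WT. SESN2, which restrains mTORC1 when leucine is scarce, had 855 and 827 in WT, 1115 and 1054 with GFP and 1311 and 1423 with RBMXL3. It too stepped upward, by 0.33 against GFP (limma adjusted p 0.0381) and by 0.68 against WT (0.000581). The call of SESN2 against GFP was lost with no filter (limma adjusted p 0.0812) and with a replicate block (0.0683). It was also lost without either WT or either RBMXL3 library.

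The other effectors did not share that pattern. DDIT4, the mTORC1 inhibitor also called REDD1, had 630 and 700 normalised reads in WT, 1414 and 1126 with GFP and 1175 and 1251 with RBMXL3. Both transduced groups lay above WT and overlapped each other: the log2 change was 0.90 for GFP against WT (SE 0.12; limma adjusted p 0.00999), 0.85 for RBMXL3 against WT (0.000477) and -0.06 for RBMXL3 against GFP (0.78). The last turned to 0.10 without GFP replicate 1. DDIT4 lies opposite DDIT4-AS1 over 41.2% of its exon bases. PPP1R15A encodes GADD34, the subunit that directs dephosphorylation of eIF2, and was the only effector called against GFP and not against WT. It is described here because it stood apart once its values were seen. Its counts were 2167 and 1625 in WT, 1613 and 1564 with GFP and 2361 and 2133 with RBMXL3, with WT replicate 1 inside the RBMXL3 range. PPP1R15A rose by 0.49 against GFP (SE 0.13; limma adjusted p 0.0171), and its change against WT was 0.25 (0.145). The change against WT depended on the WT library kept, at 0.46 without WT replicate 1 and 0.05 without WT replicate 2. The call against GFP ended without RBMXL3 replicate 1 (0.163) or replicate 2 (0.0668). VLDLR, a lipoprotein receptor reported as a PERK and ATF4 target, was not called, with log2 changes of -0.21 against GFP and 0.13 against WT.

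Of the serine, folate and transport genes 5 of 8 rose against both controls, where 6.88% of all genes did. In 7 of 8 both RBMXL3 libraries exceeded all 4 controls. Over all genes tested 22.5% had both RBMXL3 libraries above all controls and 23.6% had both below. PHGDH, which commits glycolytic carbon to serine synthesis, had 4637 and 4839 normalised reads in WT, 6613 and 6382 with GFP and 10072 and 9297 with RBMXL3. The groups did not overlap, and the log2 changes were 0.57 against GFP (SE 0.10; limma adjusted p 0.00206) and 1.03 against WT (3.16e-05). PSAT1, the next enzyme of that pathway, had 3625 and 3529 in WT, 4148 and 4939 with GFP and 6510 and 6286 with RBMXL3. It stepped upward too, by 0.50 against GFP (limma adjusted p 0.00641) and 0.83 against WT (0.000207). PSPH, the last enzyme of serine synthesis, was not called, at 0.14 against GFP and 0.25 against WT, with GFP replicate 2 above both RBMXL3 libraries.

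Of the mitochondrial folate enzymes, MTHFD2 had 6789 and 6724 normalised reads in WT, 7613 and 8191 with GFP and 10738 and 10030 with RBMXL3. Its log2 changes were 0.39 against GFP (SE 0.10; limma adjusted p 0.0147) and 0.62 against WT (0.000813). In the transcript table the order was different: summed TPM of MTHFD2 was 172 and 203 in WT, 288 and 194 with GFP and 219 and 216 with RBMXL3, with GFP replicate 1 highest and a log2 change against GFP of -0.12 (limma adjusted p 0.691). In the annotation 27.2% of its exon bases lie opposite SLC4A5. SHMT2, which passes a carbon unit from serine to folate, had 7663 and 7513 in WT, 10872 and 9916 with GFP and 12957 and 12000 with RBMXL3. SHMT2 stepped upward without overlap but was called only against WT (0.71; limma adjusted p 0.000419), with 0.26 against GFP (0.0801). It passed against GFP under quantile normalization and without GFP replicate 1.

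SLC3A2, the heavy chain that carries amino acid exchangers to the membrane, had 3855 and 4213 normalised reads in WT, 5099 and 5196 with GFP and 6468 and 6312 with RBMXL3. Its groups did not overlap, and its log2 changes were 0.31 against GFP (SE 0.09; limma adjusted p 0.0353) and 0.66 against WT (0.000462). In summed TPM neither change of SLC3A2 passed, with adjusted p-values of 0.123 and 0.0571. SLC7A5, its partner for large neutral amino acids, rose against WT, by 0.52 (limma adjusted p 0.00411), and was not called against GFP at 0.27 (0.0976). SLC7A5 was called against GFP under quantile normalization and in summed TPM (0.50; 0.0416).

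ASNS, asparagine synthetase, had very few reads in the gene table: 15 and 24 in WT, 33 and 18 with GFP, and 45 and 46 with RBMXL3. As normalised reads these were 12.7 and 20.1, 30.5 and 19.1, and 57.9 and 49.2. WT and GFP overlapped and RBMXL3 stood above both, with log2 changes of 0.68 against GFP (SE 0.19; limma adjusted p 0.0248) and 0.95 against WT (0.00325). The added pseudocount understates these. In the transcript table ASNS was abundant, at 83.8 and 72.4 TPM in WT, 81.5 and 91.8 with GFP and 140 and 128 with RBMXL3. Those values gave the same order, with log2 changes of 0.62 (limma adjusted p 0.033) and 0.77 (0.014). The normalised reads per kilobase of ASNS divided by its TPM came to 0.135, where protein-coding genes had a 5th percentile of 3.41 and a median of 12. ASNS shares 44.6% of its exon bases with AC079781.5, an annotated gene on the same strand, so its read count is uncertain. DESeq2 did not call ASNS against GFP, and a minimum mean of 5 left it untested.

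Some members were already higher in GFP cells than in WT. Between GFP and WT 6 members rose and 0 fell by limma, beside 1.76% of all genes rising and 1.91% falling. At an unadjusted p 15 rose and 2 fell, and the falls called by edgeR and DESeq2 were 0 each. No share of all genes is given for those counts. The 6 were CEBPB (0.61; limma adjusted p 0.0383), CHAC1 (0.72; 0.0164), DDIT4 (0.90; 0.00999), PHGDH (0.45; 0.029), SHMT2 (0.45; 0.035) and SDF2L1 (0.49; 0.0493). TRIB3 missed the threshold narrowly, at 0.39 (0.0503), and ATF4 and DDIT3 were not called. With no filter on low values, and in summed TPM, 0 members were called between GFP and WT. The groups ran WT, GFP, RBMXL3 in rising order without overlap for 10 of the 35 members, all of them in the integrated stress response, against 7.16% of all genes tested. The 6 calls went to 0 without WT replicate 1 or without WT replicate 2, to 10 without GFP replicate 1, to 13 without GFP replicate 2 and to 2 without RBMXL3 replicate 1 or without RBMXL3 replicate 2. The comparisons with WT share the WT libraries, and those with GFP share the GFP libraries.

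Of the 3 ER stress sensors and XBP1, 1 was called, EIF2AK3 against WT, where 15.3% of all genes fell. EIF2AK3, which encodes PERK, had 1510 and 1425 normalised reads in WT, 1375 and 1250 with GFP and 1134 and 1079 with RBMXL3. Both RBMXL3 libraries lay below all controls. It fell by 0.40 on the log2 scale against WT (SE 0.10; limma adjusted p 0.0113), and was not called against GFP at -0.24 (0.11). Without WT replicate 1 the fall against WT was no longer called (0.0982), nor without RBMXL3 replicate 1 (0.0826) or replicate 2 (0.155). The change from GFP passed once GFP replicate 2 was left out, at -0.31 (0.0246). ERN1, which encodes IRE1, had 329 and 326 in WT, 334 and 296 with GFP and 406 and 400 with RBMXL3. Both RBMXL3 libraries lay above all controls, with log2 changes of 0.34 against GFP (limma adjusted p 0.0673) and 0.28 against WT (0.0999) that did not pass. ATF6 had 122 and 113 in WT, 114 and 103 with GFP and 142 and 128 with RBMXL3, again above all controls, with changes of 0.27 (limma adjusted p 0.215) and 0.17 (0.408).

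XBP1, the target of IRE1, had 1760 and 1618 normalised reads in WT, 1594 and 1873 with GFP and 2002 and 2030 with RBMXL3. RBMXL3 was above all controls, and the log2 changes were 0.22 against GFP (95% interval -0.01 to 0.45; limma adjusted p 0.161) and 0.25 against WT (0.0886). XBP1 passed against WT under quantile normalization (0.044) and without either GFP library (0.0137 and 0.014). Against GFP it passed in summed TPM (0.049) and without GFP replicate 2 (0.0141). IRE1 removes 26 bases within exon 4 of the coding sequence, which shifts the reading frame. The stretch on GRCh38 (chr22:28796109-28796164, minus strand) is shown as GENCODE 29 gives it in XBP1-201, with the removed bases in capitals, and as joined in XBP1-202. Since bases repeat at both ends, 7 placements give the same joined sequence, and the one shown follows the letters CNGCAG at both cut sites.
XBP1-201: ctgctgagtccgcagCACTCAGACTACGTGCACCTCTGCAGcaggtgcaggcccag
XBP1-202: ctgctgagtccgcagcaggtgcaggcccag

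The spliced form was a small share of XBP1 in every library. Transcripts without the 26 bases made up 12.7% and 9.56% of XBP1 TPM in WT, 7.41% and 17.1% with GFP and 6.13% and 1.09% with RBMXL3. Both RBMXL3 libraries lay below all controls, and the GFP libraries were far apart. WT averaged 11.1% ± 2.23, GFP 12.3% ± 6.89 and RBMXL3 3.61% ± 3.56 (SD, n = 2). The share of XBP1-202 was not called, with limma adjusted p-values of 0.461 against GFP and 0.527 against WT. Transcripts with the 26 bases had 52.9 and 51.7 TPM in WT, 48.4 and 49.5 with GFP and 70.5 and 77.5 with RBMXL3, above all controls. XBP1-201 and XBP1-202 also differ in annotated length, at 1850 and 1131 bases, so the estimate does not rest on the 26 bases alone. TPM keeps no depth, and no counting interval can be given.

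**Figure D2:**
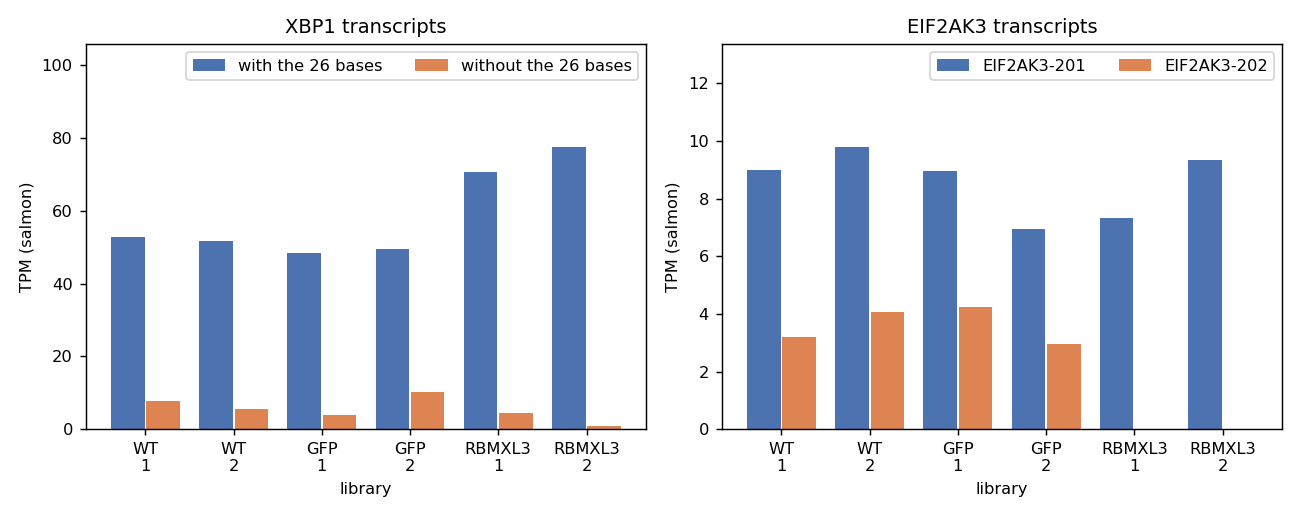
Bars give TPM by library for XBP1 transcripts with and without the 26 bases (left) and for 2 EIF2AK3 transcripts (right). The XBP1 form with the 26 bases reaches 70.5 and 77.5 TPM in RBMXL3, and EIF2AK3-202 is listed at 0 there.

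Among the 109 transcripts of 23 members tested for their share of the gene's TPM, 2 were called against both controls, both of EIF2AK3. Over all 36171 transcripts tested, 0.666% were called against both. EIF2AK3-201 spans the whole gene (chr2:88556743-88627576, minus strand), and EIF2AK3-202 starts inside it (chr2:88557854-88595857). EIF2AK3-202 had 3.21 and 4.07 TPM in WT and 4.23 and 2.97 in GFP, and was listed at 0 in both RBMXL3 libraries. EIF2AK3-201 made up 59.0% and 54.7% of the gene in WT, 67.3% and 60.3% with GFP and 99.3% and 99.4% with RBMXL3. Its share changed by 35.6 points against GFP and 42.5 against WT, and that of EIF2AK3-202 by -28.8 and -21.9. Other transcripts of the gene therefore lost share as well. Both calls are shares of the same gene and are not separate results. For EIF2AK3-201 limma gave adjusted p-values of 0.0199 against GFP and 0.0146 against WT. In amount EIF2AK3-201 overlapped between groups, at 9.01 and 9.79 TPM in WT, 8.95 and 6.95 with GFP and 7.32 and 9.36 with RBMXL3. Leaving out any 1 of the 6 libraries ended both calls against GFP, with adjusted p-values from 0.0616 to 0.314, and so did the fit of the share itself, with 0.0641 for EIF2AK3-201 and 0.118 for EIF2AK3-202. Against WT both calls ended without either WT or either RBMXL3 library, with values from 0.156 to 0.326. A listed 0 can also be a failed estimate of a low transcript.

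Chaperones and folding enzymes stayed near control levels or fell. HSPA5 encodes BiP, the main Hsp70 chaperone of the ER, and had 26688 and 22204 normalised reads in WT, 23264 and 26646 with GFP and 21057 and 21602 with RBMXL3. Both RBMXL3 libraries were lower than all controls by less than the spread among those controls. HSPA5 was not called: the log2 change was -0.22 against GFP (95% interval -0.49 to 0.04; limma adjusted p 0.218) and -0.19 against WT (-0.46 to 0.08; 0.257). The sign against GFP turned to 0.05 under quantile normalization.

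Of the 13 folding and degradation members 3 fell against GFP, where 10.4% of all genes fell, and 1 fell against WT, where 15.3% did. Against either control 0 rose, by limma, edgeR and DESeq2 alike. At an unadjusted p 0 rose against GFP and 0 against WT. The 4 that fell are named because they are few, after their values were seen, apart from SDF2L1. CALR, the lectin chaperone calreticulin, had 43677 and 38456 in WT, 51952 and 43497 with GFP and 35817 and 35130 with RBMXL3, below all controls, with -0.42 against GFP (SE 0.13; limma adjusted p 0.0358) and -0.21 against WT (0.24). MANF, a secreted ER stress protein, had 2336 and 2039 in WT, 2197 and 2549 with GFP and 1716 and 1839 with RBMXL3, also below all controls. Its changes were -0.41 against GFP (limma adjusted p 0.0207) and -0.29 against WT (0.0602). DNAJC3, the co-chaperone P58IPK, fell by 0.31 against WT (0.0332) and was level with GFP (-0.02). The fall of DNAJC3 was also called by edgeR. It was not called by DESeq2, with no filter or with a replicate block. Nor was it called under quantile normalization (limma adjusted p 0.0589) or in summed TPM (0.112). WT stood above both transduced groups for DNAJC3. Without either RBMXL3 library the calls of CALR, MANF and DNAJC3 ended, with adjusted p-values from 0.116 to 0.262. CALR was also not called without GFP replicate 1 (0.0637), nor DNAJC3 without WT replicate 1 (0.179) or replicate 2 (0.0804).

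SDF2L1, a partner of the BiP chaperone cycle, was called higher in GFP than in WT, at 0.49 (limma adjusted p 0.0493), a call at the edge of the threshold. It was lost with edgeR (0.0544), quantile normalization (0.0536), a pseudocount of 0.1 (0.0525), a minimum mean of 5 (0.0583), no filter (0.239) and summed TPM (0.391). It was also lost without WT replicate 1 (0.356), WT replicate 2 (0.108), GFP replicate 1 (0.0772), RBMXL3 replicate 1 (0.0757) or RBMXL3 replicate 2 (0.0739). It had 2328 and 2789 normalised reads in WT, 3820 and 3364 with GFP and 2441 and 2989 with RBMXL3. GFP lay above both other groups, which overlapped, and the change of RBMXL3 was -0.41 against GFP (SE 0.12; limma adjusted p 0.0358) and 0.08 against WT (0.64). Under quantile normalization 7 of the 13 folding and degradation members had a positive change against GFP, in place of 2, and of the 3 falls only MANF was called. The sign of this group against GFP therefore depends on the scaling. Summed TPM of CALR gave 1365 and 1218 in WT, 1438 and 1240 with GFP and 1224 and 1243 with RBMXL3, where the groups overlapped. In summed TPM 0 members were called lower against GFP. The log2 changes there were -0.11 for CALR (limma adjusted p 0.542), -0.06 for MANF (0.789) and -0.22 for SDF2L1 (0.367).

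The other folding and degradation members were not called in any comparison of RBMXL3. HSP90B1, HYOU1, PDIA6 and HERPUD1 had log2 changes between -0.18 and -0.09 against GFP, PDIA4 and CRELD2 were at -0.02 and -0.03, and DNAJB9 and SEL1L at 0.12 and 0.20. PDIA4 was called higher in summed TPM against both controls (0.64 and 0.60; limma adjusted p 0.0456 and 0.0399). The gene and transcript tables do not match for PDIA4: its normalised reads per kilobase over TPM came to 138, against a 95th percentile of 20.6 among protein-coding genes.

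Known ER stress promoters carry the ER stress element, CCAAT and CCACG with any 9 bases between them (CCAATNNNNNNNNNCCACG), or the ER stress element II, ATTGG and CCACG with 1 base between them, which spliced XBP1 and cleaved ATF6 use. On both strands of the RefSeq windows the first was present in 6 of 33 members, XBP1, HSPA5, HSP90B1, PDIA6, CALR and CRELD2, and in 0.0916% of all genes. The second was present in HYOU1, SDF2L1 and HERPUD1 and in 0.0696% of all genes. Examples are shown because they mark the members that these factors are known to drive: HSPA5 (chr9:125241371-125241429, minus strand), XBP1 (chr22:28800583-28800641, minus), CALR (chr19:12938364-12938422, plus), SDF2L1 (chr22:21642094-21642144, plus) and the site of HYOU1 nearer to its start (chr11:119057254-119057304, minus). Matched letters and the bases between them are in capitals, 5′ to 3′ on the strand of the gene (GRCh38.p14), and in CALR, SDF2L1 and HYOU1 the element lies on the other strand.
HSPA5: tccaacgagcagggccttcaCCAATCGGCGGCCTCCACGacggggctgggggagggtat
XBP1: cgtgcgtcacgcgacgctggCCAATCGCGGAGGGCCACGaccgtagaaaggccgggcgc
CALR: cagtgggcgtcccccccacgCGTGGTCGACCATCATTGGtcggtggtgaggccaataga
SDF2L1: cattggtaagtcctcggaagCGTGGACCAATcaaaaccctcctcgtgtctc
HYOU1: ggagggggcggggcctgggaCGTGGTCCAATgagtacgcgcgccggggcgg
Of the 9 members with either element, 0 rose and 2 fell against GFP (CALR and SDF2L1), and 0 were called against WT. Over all genes 10.5% rose and 10.4% fell against GFP, and 14.6% rose and 15.3% fell against WT. With only 9 members these counts are not far from such shares, and neither an excess nor a lack was tested. Their log2 changes ran from -0.42 to 0.22 against GFP and from -0.22 to 0.25 against WT. The letters TGACGTGG, the core of another element of this response, were present in HYOU1, overlapping its farther ER stress element II, and in 0.927% of all genes. Which factors occupied these sites was not measured.

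Genes outside the 35 members were described as lists. Like the members, these lists were chosen with earlier results of these data known. Their counts are therefore no independent test of the pattern. Of 24 other ATF4 target genes 14 rose and 0 fell against both controls (0 also at an unadjusted p, by edgeR and by DESeq2), beside 6.88% and 6.86% of all genes, and the list's medians were 0.42 against GFP and 0.65 against WT. SLC7A11, the cystine importer, had 436 and 524 normalised reads in WT, 404 and 492 with GFP and 1042 and 1038 with RBMXL3. GFP and WT overlapped for SLC7A11, and its log2 changes were 1.18 (SE 0.13; limma adjusted p 0.000245) and 1.08 (0.000149). ALDH1L2, a mitochondrial folate enzyme, had 522 and 440 in WT, 444 and 474 with GFP and 1056 and 885 with RBMXL3, with changes of 1.04 (limma adjusted p 0.000449) and 0.98 (0.000262). VEGFA, the vascular growth factor, had 267 and 255 in WT, 359 and 326 with GFP and 649 and 649 with RBMXL3, with 0.88 (limma adjusted p 0.000692) and 1.24 (3.52e-05). For ALDH1L2 too GFP and WT overlapped, while VEGFA stepped upward from WT to GFP to RBMXL3.

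In a list of eIF2 genes outside the members more fell than rose. The 14 genes are those of eIF2, its kinases other than PERK, its exchange factor eIF2B and the phosphatase subunit PPP1R15B, with EIF5 and EIF2A. EIF2AK3 and PPP1R15A are members and are not in this list. By limma 5 fell and 0 rose against both controls, where 6.86% of all genes fell and 6.88% rose. The list's medians were -0.29 and -0.29. At an unadjusted p 6 fell and 1 rose, edgeR called 4 and 0, and DESeq2 3 and 0. EIF2B2, a regulatory subunit of eIF2B, had 1324 and 1342 normalised reads in WT, 1401 and 1246 with GFP and 856 and 849 with RBMXL3, with log2 changes of -0.62 (limma adjusted p 0.00193) and -0.63 (0.000929). EIF5, which activates the GTPase of eIF2, had 11133 and 9875 in WT, 6985 and 8795 with GFP and 5568 and 5470 with RBMXL3, with -0.50 (limma adjusted p 0.0115) and -0.92 (0.000238). EIF2B1, another regulatory subunit, changed by -0.49 (0.00473) and -0.50 (0.00291). In all of these both RBMXL3 libraries lay below every control.

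The 20 cytosolic aminoacyl-tRNA synthetases, many of which ATF4 is known to drive, were mixed, with medians of -0.02 and -0.02. Against both controls 1 rose and 3 fell, where 6.88% of all genes rose and 6.86% fell. CARS1, for cysteine, rose by 0.47 (limma adjusted p 0.00516) and 0.61 (0.000741), while RARS1, for arginine, changed by -0.63 (0.00318) and -0.64 (0.0018) and WARS1, for tryptophan, by -0.47 (0.0141) and -0.66 (0.00141). Of 18 other ER chaperones and folding enzymes tested 2 rose and 1 fell against both, beside the same shares of all genes. ERO1B, an oxidase for disulfide formation, rose by 0.80 (0.0103) and 0.67 (0.017), and HSPA13, an Hsp70 relative, by 0.48 (0.00724) and 0.48 (0.00474). TXNDC5, a disulfide isomerase, changed by -0.84 (0.0161) and -0.88 (0.00892), with only 2 and 6 reads in RBMXL3 but 109 to 121 summed TPM in all 6 libraries.

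Of 17 other degradation genes tested 0 rose (0 also at an unadjusted p, by edgeR and by DESeq2) and 1 fell against both controls, UFD1, a cofactor of the p97 segregase, by -0.48 (limma adjusted p 0.0069) and -0.38 (0.0155). Among 15 translocation genes 1 rose and 2 fell. For the lists in this paragraph too, the shares over all genes were 6.88% rising and 6.86% falling. SPCS3, of the signal peptidase, rose by 0.94 (0.00372) and 0.68 (0.0131), and the channel subunit SEC61A1 changed by -0.41 (0.0161) and -0.46 (0.00597) and the receptor subunit SRPRB by -0.39 (0.0267) and -0.39 (0.0194). Of 11 other sensors and ER-bound factors tested 2 rose, ATF6B, a relative of ATF6 (0.41 and 0.48), and CREB3L4 (0.40 and 0.84). RTCB, the ligase that joins XBP1 after IRE1 has cut it, fell, at -0.50 against GFP (0.00413) and -0.30 against WT (0.0351). Its values were 2222 and 2340 normalised reads in WT, 2748 and 2518 with GFP and 1909 and 1787 with RBMXL3, below all controls.

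**Figure D3:**
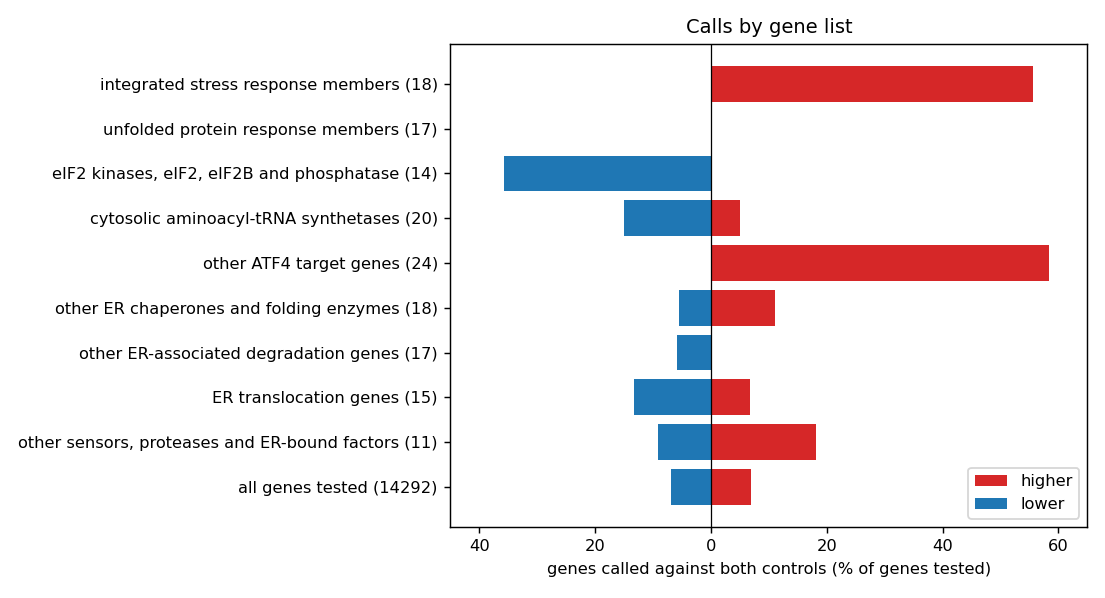
Bars give the percent of tested genes in each list called against both controls, higher to the right and lower to the left, with the number tested in brackets and all 14292 genes at the bottom. The integrated stress response members (10 of 18) and the other ATF4 targets (14 of 24) extend to the right, and the eIF2 list (5 of 14) to the left. Members and lists were chosen with earlier results of these data known.

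Summed TPM, the second readout of the same libraries, gave a shift of 0.13 in the median of all genes against GFP, on the log2 scale. In it 8 of the 10 members called against both controls were called again, MTHFD2 and SLC3A2 being the exceptions. ATF4 and VLDLR, like PDIA4, had far fewer TPM than their read counts would give, with normalised reads per kilobase over TPM of 648 and 2830. The cause of this mismatch was not tested, so TPM values of these 3 genes are uncertain. CEBPB, CEBPG and PHGDH had 62.3, 46.0 and 370 TPM on average in RBMXL3, 32.6, 25.9 and 204 in GFP and 23.2, 27.6 and 176 in WT. Per length, PHGDH was thus the most abundant of these 3 in every group, and CEBPG in GFP was not above WT.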

How the data were processed

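RNA sequencing of 6 libraries gave 1 gene table and 1 transcript table. Per the submitters' processing notes the tools were Trim Galore 0.6.10, STAR 2.7.11a, DESeq2 and Salmon 1.10.2 on GRCh38. The annotation and the use of strand in counting are not given in the sources used here. The deposited gene values are a normalised signal, read counts divided by library size factors: 100% of 145320 nonzero values came out as whole reads (tolerance 0.001), so depth could be recovered. Transcript values are TPM as deposited by the authors, and TPM keeps no depth.

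Levels in the text are these deposited values, called normalised reads. For testing they were divided by 1 common factor (23.9). limma 3.58.1 (R 4.3.3) with a trend was run on log2(value + 1), which understates changes of low genes, for genes at 1 or more in at least 2 libraries, two-sided, with Benjamini-Hochberg adjustment over 14292 genes. Transcript shares were fitted as the arcsine square root. edgeR 4.0.16 and DESeq2 1.42.0 on the recovered reads, summed TPM, other filters, scalings and left-out libraries were alternatives. Scripts were tested on simulated data. Gene identifiers matched a name entry for 62700 of 62700 genes, and 80.0% of 251955 transcripts, with 94.7% to 95.1% of TPM, matched GENCODE 29, used for coordinates and sums. Promoters were RefSeq windows.

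Members and lists were chosen with earlier results of these data known. Values in every library are given for members called against both controls or between GFP and WT, and for ATF4, DDIT3, EIF2AK3, ERN1, ATF6, XBP1 and HSPA5, and at most 3 genes of each other list are named. Depth and group were not balanced, and no batch is labelled, so batch and group cannot be told apart.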

Additional observations from a re-analysis of the deposited data

How the results depend on the processing

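The 10 members called against both controls kept their direction under each alternative that tested them, apart from MTHFD2 in summed TPM (-0.125 against GFP). Over all alternatives 760 single values kept direction and call, 127 lost a call, 24 gained one and 24 turned sign. With no filter on low values, members called against GFP went from 14 to 1, between GFP and WT from 6 to 0, and against both controls, as well as integrated stress response members higher against both, from 10 to 1. In summed TPM 0 members were called between GFP and WT and 1 folding member (PDIA4) was higher against both. Leaving out 1 library gave 1 to 17 calls against GFP, 11 to 21 against WT, 0 to 13 between GFP and WT, 1 to 13 against both controls and 1 to 11 of the integrated stress response, each with a lone library assumed to vary like the others. Called transcripts went from 2 to 0 against GFP and to 1 against WT for the share itself, to 0 and 0 at a mean TPM of at least 5, and over left-out libraries were 0 against GFP and 0 to 3 against WT.

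With a replicate block, members called against both controls went from 10 to 7, with CEBPG (0.0578), SESN2 (0.0683) and SLC3A2 (0.065) no longer called against GFP. Members higher against GFP went from 11 to 8, calls between GFP and WT from 6 to 3, and called transcripts to 0 against GFP and 0 against WT. Same-numbered libraries correlated at -0.156, 0.0337 and -0.0941, so the numbers were not taken to pair them.

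Signs turned as follows. Under quantile normalization ATF4 against GFP was 0.105, HSPA5 against GFP 0.0471 and HSPA5 between GFP and WT -0.0697. In summed TPM ATF4 was 0.966 and DDIT4 0.187 against GFP, and between GFP and WT CEBPG was -0.0882, ERN1 0.117, XBP1 -0.0730 and HSPA5 -0.137. Over left-out libraries, changes against GFP ran from -0.0619 to 0.00633 for ATF4 (positive without GFP replicate 2), from -0.0998 to 0.2505 for DDIT3 (negative without GFP or RBMXL3 replicate 1) and from -0.2174 to 0.105 for DDIT4 (positive without GFP replicate 1). SDF2L1 against WT ran from -0.0611 to 0.2284 (negative without WT replicate 1 or RBMXL3 replicate 2). Between GFP and WT the ranges were -0.137 to 0.0251 for ERN1, -0.0813 to 0.1483 for XBP1, -0.1001 to 0.1651 for HSPA5, -5.76 to 2.25 points for the XBP1-201 share and -3.73 to 6.004 points for the XBP1-202 share. Each of these turned without GFP replicate 2, and XBP1, HSPA5 and the XBP1-202 share also without WT replicate 2. The cause was not tested. ASNS had 15 to 46 reads in the gene table, which limits its precision there.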
